A study of Mus musculus with 14 samples.

Results

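The genes described here are 10 transcription factor genes of early blood cell formation: Runx1, Runx2, Runx3, Cbfb, Spi1, Gfi1, Gfi1b, Myb, Myc and Etv6. They were taken by name, with every probe set that the annotation of the array assigns to that symbol alone. That gave 18 of the 45101 probe sets in the file, for 9 of the 10 genes, since the annotation used here assigns no probe set to Runx2, which was not analysed here. Runx1 had 6 probe sets, Myb 3, Runx3 and Etv6 2 each, and the others 1 each. Where a gene had several, the one with the highest mean over all arrays is called its leading probe set.

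RNA was measured on 14 Affymetrix mouse arrays in 7 groups of 2. One group was Tet2-deficient cells that started as sorted CD150+ LSK cells and had been replated 5 times in culture (replated KO). The others were populations sorted from the bone marrow of Tet2-/- Mx+ mice (KO) and of Tet2+/+ Mx+ littermates (WT): LSK cells, common myeloid progenitors (CMP) and granulocyte-macrophage progenitors (GMP). Tet2 is a dioxygenase that converts methylcytosine to its hydroxymethyl form. KO and WT mice alike were on a B6/129 background and carried Mx, and deletion was induced with pIC. The labels place the LSK and CMP sorts 4 weeks after deletion and give neither a time for GMP nor the age of the mice. LSK cells lack lineage markers and carry both Sca1 and c-Kit. CMP and GMP are lineage-negative, c-Kit+, Sca1- and CD34+, with low Fc gamma receptor in CMP and high in GMP. The Mx-Cre system is not restricted to blood cells. Replated cells of WT origin were not analysed here. The labels do not say whether replicate arrays stem from different animals or cultures, so p-values measure only the spread between these samples, which may be technical.

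RUNX proteins bind DNA through a Runt domain, and the partner protein encoded by Cbfb has no DNA contact of its own but strengthens that binding. Runx1 is needed for blood stem cells to arise in the embryo. PU.1, the product of Spi1, is an ETS factor whose level helps to set monocytic against granulocytic and lymphoid fates. Gfi1 and Gfi1b are zinc finger repressors that recruit the histone demethylase LSD1, the first used mostly in stem cells, lymphoid and granulocytic cells and the second in the erythroid and megakaryocytic lines. Myb keeps progenitors immature and dividing. Myc drives growth and ribosome production as a dimer with Max. Etv6 is an ETS repressor needed for blood stem cells in adult bone marrow. Several of these genes are altered in human leukaemia.

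RefSeq promoter windows of build GRCm38.p6, from 250 bases before to 50 bases after a start, were available for 8 of the 10 genes, 11 windows in all. Spi1 and Myc had none. The first windows of Runx1 and Runx3 are shown because both genes rose in replated KO cells and share a stretch of promoter. The longest run common to them was 18 bases, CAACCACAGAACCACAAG, which holds the RUNX core TGTGGT 2 times on the opposite strand. It begins 26 bases after the Runx1 start and 136 bases before the Runx3 start. Of 32851 promoter windows, 4 hold it (0.0122%), namely those of Runx1, Runx2, Runx3 and Gm16225, a gene whose window overlaps that of Runx3 on the other strand. In the Runx1 window below, minus strand of chr16:92826025-92826324, capitals mark the shared run and a CACGTG, the E-box read by Myc and Max, 71 bases before the start. In the Runx3 window, plus strand of chr4:135120395-135120694, capitals mark the shared run alone.
Runx1: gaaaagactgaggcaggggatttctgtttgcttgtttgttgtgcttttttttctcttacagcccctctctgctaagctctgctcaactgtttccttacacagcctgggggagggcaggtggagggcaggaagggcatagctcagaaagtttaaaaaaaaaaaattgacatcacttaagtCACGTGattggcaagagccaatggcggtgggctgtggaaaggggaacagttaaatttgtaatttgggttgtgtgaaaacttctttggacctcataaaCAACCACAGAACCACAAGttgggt
Runx3: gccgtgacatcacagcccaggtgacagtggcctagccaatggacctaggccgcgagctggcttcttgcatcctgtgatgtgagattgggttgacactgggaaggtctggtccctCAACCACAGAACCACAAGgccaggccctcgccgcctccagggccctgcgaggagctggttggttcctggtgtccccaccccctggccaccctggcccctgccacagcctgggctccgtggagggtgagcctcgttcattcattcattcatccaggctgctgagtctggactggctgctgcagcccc

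The Gfi1b window is shown because Gfi1b was highest in replated KO cells and lowest in GMP. It lies on the minus strand of chr2:28621933-28622232, and capitals mark AAATCA, the core read by Gfi1 and Gfi1b, 34 bases before the start.
Gfi1b: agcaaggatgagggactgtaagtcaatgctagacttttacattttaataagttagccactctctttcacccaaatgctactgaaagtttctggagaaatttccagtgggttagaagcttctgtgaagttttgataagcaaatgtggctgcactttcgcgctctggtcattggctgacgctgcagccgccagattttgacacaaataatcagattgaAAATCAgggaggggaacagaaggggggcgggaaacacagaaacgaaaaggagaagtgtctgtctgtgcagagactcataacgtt

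Motifs were searched on both strands, with matches that could overlap each other. TGTGGT stands in 16.8% of all 32851 windows, AAATCA in 14%, GAGGAAG (read by PU.1 and other ETS factors) in 13.6%, CACGTG in 7.15% and TAACGG (read by Myb) in 2.76%. The second windows of Runx1 and Runx3, both windows of Gfi1 and the Myb window hold none of these 5 motifs, the Cbfb window holds GAGGAAG 2 times, and the Etv6 window holds AAATCA 1 time. A match is a description of letters and not a binding site.

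The arrays were first checked against their labels. Array medians lay between 31.16 and 32.98 intensity units. Replicate arrays of a group correlated at 0.9612 (KO LSK) to 0.9928 (replated KO) across probe sets, with WT LSK at 0.9664, so both LSK groups were the noisiest. The targeted gene, Tet2, had 1786 and 1823 on probe set 1455300_at in replated KO cells, 855.3 to 2376 on the 6 sorted KO arrays and 454.1 to 2045 on the 6 WT arrays. On 1438781_at it had 779.8 and 795.8 in replated KO cells, 17.02 to 175.3 in sorted KO and 65.93 to 209.3 in WT. Sorted KO and WT arrays overlapped on both, and the averaged KO minus WT differences of 0.75 ± 0.23 and -0.54 ± 0.38 log2 units did not pass (SE, limma adjusted p = 0.341 and 0.737). Whether these probes lie in the deleted part was not analysed here. Xist, transcribed from the inactive X chromosome, stood at 5011 to 6591 in sorted KO groups, at 20.05 in replated KO cells and at 21.33 to 28.09 in WT groups. Y-linked Eif2s3y stood at 7.293 to 11.23 in sorted KO groups, at 2069 in replated KO cells and at 893.9 to 1158 in WT groups. Sex and genotype therefore cannot be told apart in the sorted cells, nor sex and culture between replated and sorted KO cells.

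Markers of the labelled populations were present. The summed intensity of 5 measured LSK and stem cell markers was 10340 to 11950 in KO LSK, 4511 to 6262 in KO CMP and 2190 to 2560 in KO GMP, and 8726 to 11200, 3507 to 4225 and 1778 to 2131 in the same WT stages. In replated KO cells the sum was 8178 to 9222, with 1 of the 5 at or below the floor of the array. Most of that sum was Kit (4913 and 5568), which mast cells also express, and Mecom (2805 and 3155), while Hlf had 31.6 and 42.08, against 3355 and 4349 in KO LSK; all 3 are named after their values were seen. The floor is the brightest bacterial control probe set, between 20.8 and 27.8 on these arrays, and all 18 probe sets of the 9 genes lay above it on all 14 arrays. Replated KO cells carried mast cell and basophil transcripts: 6 measured markers summed to 57360 to 59370 there, against 478 to 485 in KO LSK, 2756 to 3003 in KO CMP and 2618 to 3385 in KO GMP. Of these 6, Mcpt8 had 496.3 and 485.5 in replated KO cells, below KO CMP (779.1 and 542.6) and KO GMP (857.3 and 1022). It lay above KO LSK (113.1 and 163.3), and is named after its values were seen. Early granulocyte markers of replated KO cells summed to 9186 to 9877, against 18910 to 20430 in KO LSK and 46120 to 46350 in KO GMP. Of these early granulocyte markers, 4 of 6 lay at or below the floor in replated KO cells, Mpo and Elane among them. Most of the replated sum was Fcgr3 (5454 and 5258) and Cd34 (3673 and 4564). Fcgr3 had 382.1 and 402.3 in KO LSK and 3382 and 4016 in KO GMP. Cd34 had 4866 and 4990 in KO LSK and 4468 and 4558 in KO GMP. Fcgr3 and Cd34 are named after their values were seen. Late neutrophil markers summed to 126.9 to 135 in replated KO cells, 3 of 6 at or below the floor, against 13540 to 18860 in KO LSK. Monocyte markers summed to 1523 to 1786 in replated KO cells, 4 of 6 at or below the floor. KO LSK had 1634 to 2243, KO CMP 6022 to 6439 and KO GMP 8736 to 9444. Of these markers, Cx3cr1 was higher in replated KO cells (276.7 and 303.9) than on any sorted array, the highest being 141.1. Ccr2 (1200 and 1440) lay above KO LSK (841.7 and 778.2) and below KO CMP (3476 and 3403) and KO GMP (4069 and 3506). Cx3cr1 and Ccr2 are named after their values were seen. In these bulk samples fewer cells of a type and less RNA per cell cannot be told apart, and the part of these marker shifts in the results below was not tested.

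**Figure D1:**
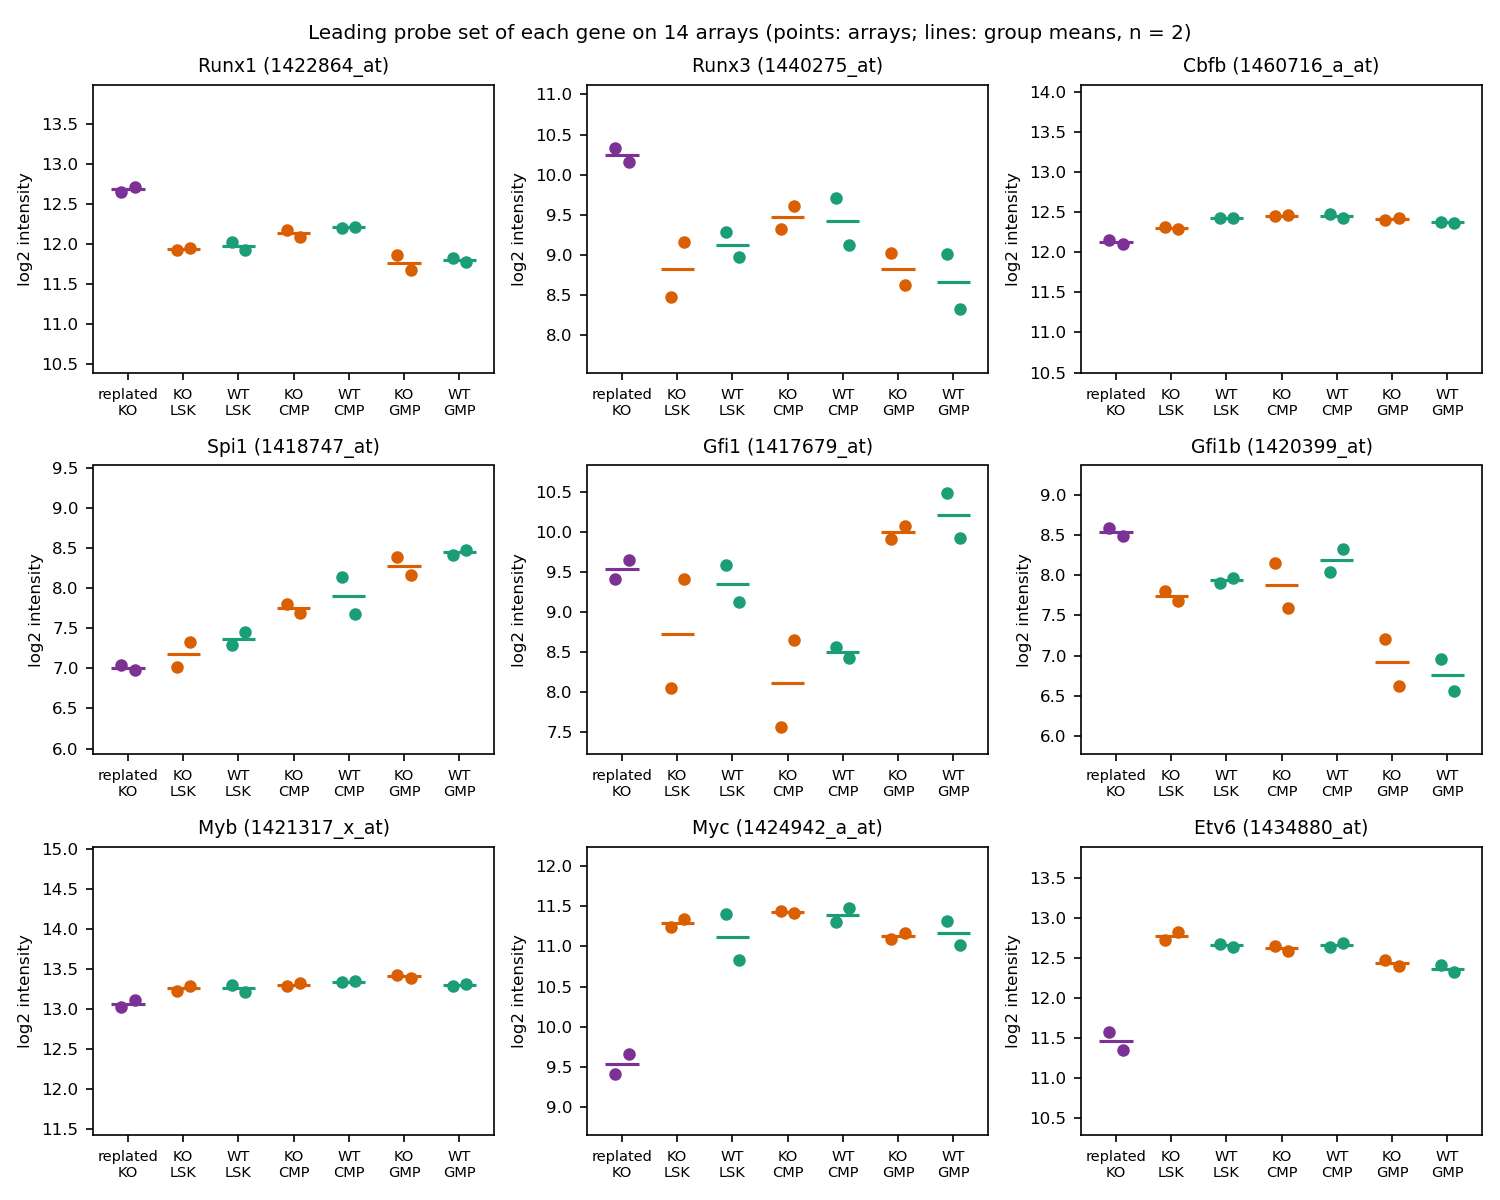
Log2 intensity of the leading probe set of each of the 9 measured genes on every array (y axis; the x axis gives the 7 groups; points are single arrays, lines the mean of the 2). Replated KO arrays are the highest for Runx1, Runx3 and Gfi1b and the lowest for Myc, Etv6, Myb and Cbfb, while Spi1 climbs from LSK to GMP in both genotypes.

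The culture comparison set replated KO cells against each sorted KO population, all 3 with the same 2 replated arrays. Replated KO cells had more Runx1 and less Myc and Etv6 than any sorted KO population, and on 2 of 3 probe sets less Myb. Runx3 was higher than in KO LSK and KO GMP, Gfi1b higher and Spi1 lower than in KO GMP, and Spi1 also lower than in KO CMP. A probe set was called at a limma adjusted p below 0.05 over 45037 probe sets. By that rule 11 of the 18 passed against KO LSK (7 higher, 4 lower), 11 against KO CMP (5 higher, 6 lower) and 11 against KO GMP (6 higher, 5 lower). Of all probe sets, 19% were called against KO LSK (9.35% higher, 9.66% lower), 18.3% against KO CMP (8.83% higher, 9.51% lower) and 19% against KO GMP (8.77% higher, 10.2% lower). Counted by leading probe sets, 4 of 9 genes passed against KO LSK, 4 of 9 against KO CMP and 6 of 9 against KO GMP, against 23.1%, 22.5% and 23.4% of all 18193 genes. Changes were thus frequent throughout the genome in these comparisons, and the shares among so few genes are given as a description.

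Runx1, the founding RUNX factor, had 6436 and 6687 on its leading probe set 1422864_at in replated KO cells. Sorted KO cells had 3882 and 3941 in LSK, 4625 and 4365 in CMP and 3709 and 3257 in GMP. Both replated arrays lay above every sorted array, WT included. The log2 difference was 0.75 ± 0.12 against KO LSK (SE, limma adjusted p = 0.0022), 0.55 ± 0.12 against KO CMP (adjusted p = 0.0118) and 0.92 ± 0.12 against KO GMP (adjusted p = 0.000645). The KO CMP call was lost without replated array 1 (adjusted p = 0.051), without replated array 2 (0.0745) and without KO CMP array 2 (0.0674).

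The dimmer Runx1 probe sets showed larger differences, except 1427650_a_at against KO GMP. Probe set 1440878_at had 3047 and 2659 in replated KO cells, against 673 and 714 in KO LSK, 1119 and 1094 in KO CMP and 751 and 697 in KO GMP. The replated arrays did not overlap any sorted group, and the difference was 2.04 ± 0.21 against KO LSK (4.11-fold, limma adjusted p = 0.000142), 1.36 ± 0.21 against KO CMP (adjusted p = 0.00165) and 1.98 ± 0.21 against KO GMP (adjusted p = 0.000171). Probe set 1422865_at had 2104 and 2457 in replated KO cells, against 794 and 657 in KO LSK, 1181 and 1061 in KO CMP and 830.1 and 983 in KO GMP, and passed in all 3 comparisons, with 1.65 ± 0.19 against KO LSK (adjusted p = 0.00032). At 228 and 212 in replated KO cells, 1452531_at stood at 37.9 to 97.7 on the 6 sorted KO arrays, and also passed in all 3, with 2.24 ± 0.40 against KO GMP (limma adjusted p = 0.00376). All 6 Runx1 probe sets were higher against KO LSK at the threshold, 5 against KO CMP and 4 against KO GMP. The remaining 3 values were positive as well: 0.99 ± 0.31 against KO CMP (limma adjusted p = 0.0585) and 0.97 ± 0.31 against KO GMP (0.0607) for 1452530_a_at, and 0.44 ± 0.15 against KO GMP (0.082) for 1427650_a_at. Of the calls named here, 1452531_at against KO CMP was lost without replated array 1 (adjusted p = 0.0762), replated array 2 (0.0628) or KO CMP array 2 (0.0663). For 1452530_a_at the KO LSK call was lost without replated array 1 (0.0903) or KO LSK array 2 (0.065), and its values against KO CMP and KO GMP passed without either WT LSK array (0.0262 and 0.0271). The KO CMP call of 1427650_a_at was lost without replated array 1 (0.133), KO CMP array 1 (0.0766) or KO CMP array 2 (0.0629), and with a spread fitted to intensity (0.104). A fit to only the arrays of the groups compared lost 3 of the 6 KO LSK calls, those of 1422864_at (0.0557), 1427650_a_at (0.0543) and 1452530_a_at (0.0609), and the KO CMP calls of 1422864_at (0.087), 1427650_a_at (0.0882) and 1452531_at (0.0714).

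**Figure D2:**
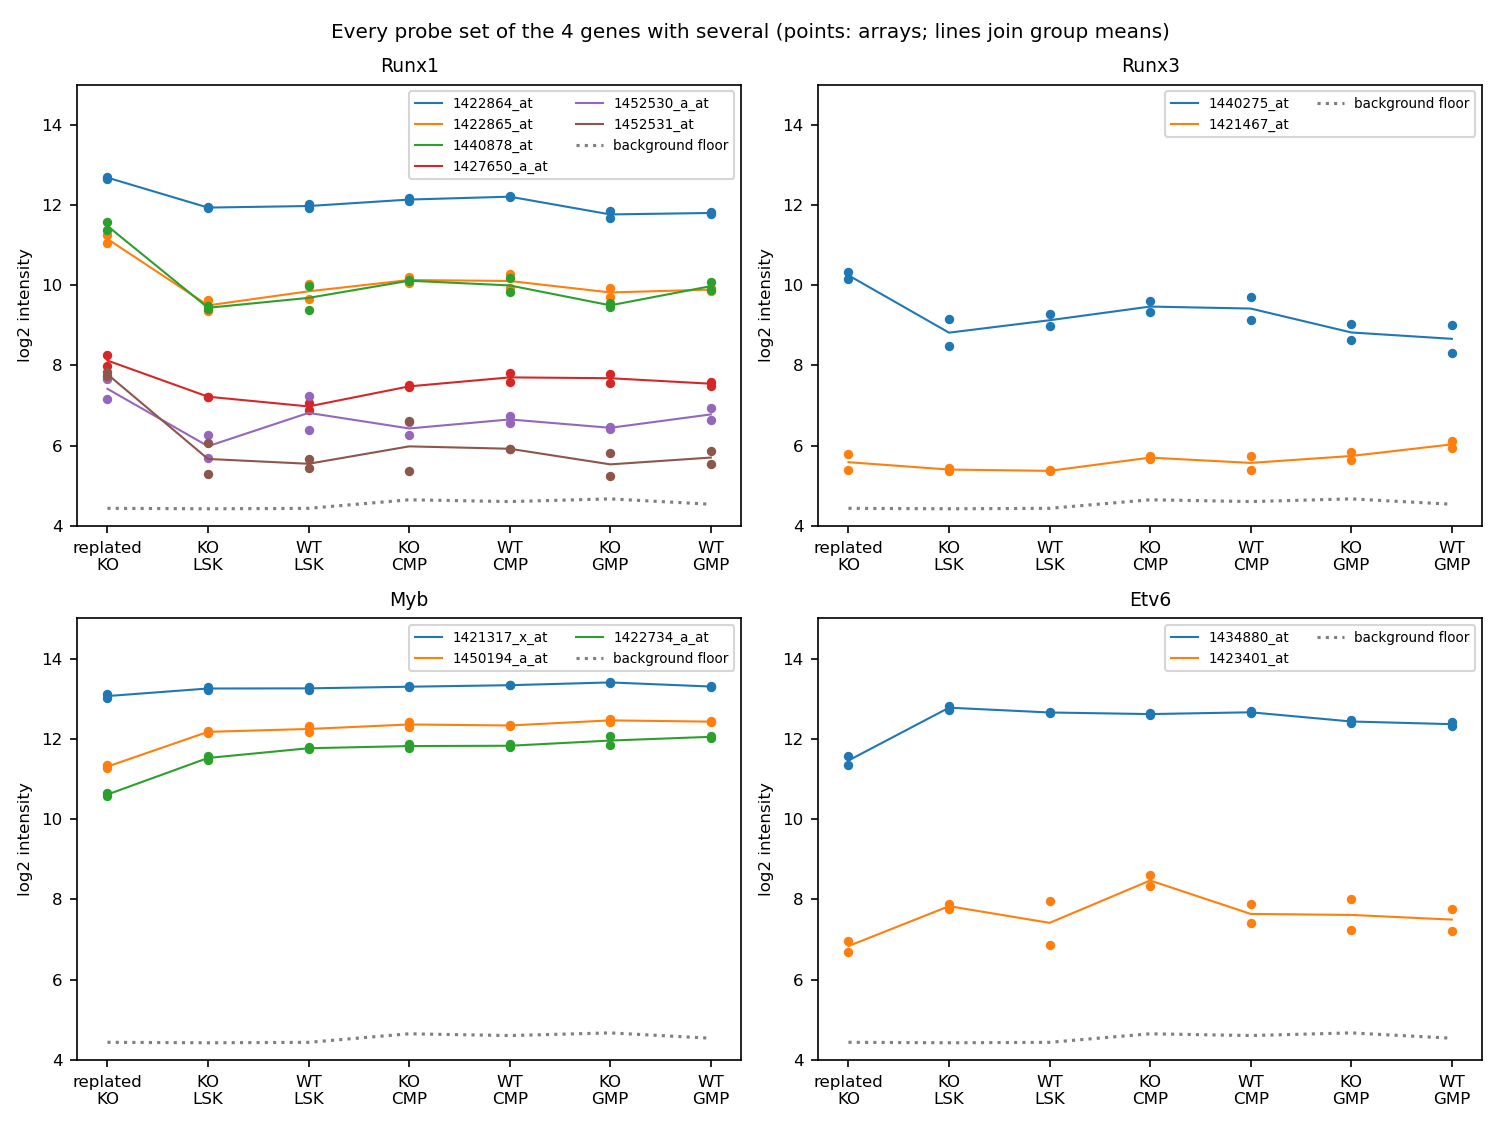
Every probe set of the 4 genes with several (Runx1, Runx3, Myb, Etv6), as log2 intensity on each array (y axis; the x axis gives the 7 groups; points are arrays, each line joins the group means of a probe set, and the dotted line is the bacterial control floor). All 6 Runx1 probe sets peak in replated KO cells, while the brightest Myb probe set is nearly flat and the other 2 drop there.

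Runx3, the RUNX factor best known in lymphoid cells, had 1288 and 1145 on probe set 1440275_at in replated KO cells. KO LSK had 356 and 572, KO CMP 642 and 780.1, and KO GMP 520.1 and 394. Replated values lay above all 12 sorted arrays, and the difference passed against KO LSK (1.43 ± 0.32, limma adjusted p = 0.0127) and KO GMP (1.42 ± 0.32, adjusted p = 0.0126) but not KO CMP (0.78 ± 0.32, adjusted p = 0.144). Both calls were lost without replated array 1 (differences 1.34 and 1.34) or array 2 (1.51 and 1.51). The KO LSK call was also lost without KO LSK array 1 (1.09), and the KO GMP call without KO GMP array 2 (1.22). A fit to only the arrays of the groups compared lost the KO LSK call as well (limma adjusted p = 0.0541). Its second probe set, 1421467_at, ranged only from 41.2 to 70.0 over all arrays, correlated at -0.27 with the first over the 14 arrays, and passed in no replated comparison. Cbfb, the common partner, had 4559 and 4416 in replated KO cells, against 5088 and 5029.9 in KO LSK, 5608 and 5656 in KO CMP and 5435 and 5507 in KO GMP. The replated arrays were the lowest of all 14, yet the differences of -0.17, -0.33 and -0.29 (SE 0.11 each) did not pass (limma adjusted p = 0.337, 0.066 and 0.105). All 3 passed with 16 added to the intensities (0.0386, 0.00178 and 0.00351) and with a spread fitted to intensity (0.0497, 0.00171 and 0.00372).

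Spi1 had 131 and 126 in replated KO cells, against 129.6 and 161 in KO LSK, 224 and 207 in KO CMP and 337 and 288 in KO GMP. Replated cells overlapped KO LSK and lay below KO CMP and KO GMP. The difference was -0.17 ± 0.18 against KO LSK (limma adjusted p = 0.629), -0.74 ± 0.18 against KO CMP (adjusted p = 0.0212) and -1.27 ± 0.18 against KO GMP (adjusted p = 0.00113). Against KO CMP the call was lost with a spread fitted to intensity (limma adjusted p = 0.0754). It was also lost without replated array 1 (difference -0.77), replated array 2 (-0.71), KO CMP array 1 (-0.68) or KO CMP array 2 (-0.80).

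Gfi1b had 384 and 361 in replated KO cells, the highest of all groups, against 223 and 205 in KO LSK, 285 and 193 in KO CMP and 148 and 98.5 in KO GMP. No replated array overlapped a sorted one. Only the difference from KO GMP passed (1.63 ± 0.25, 3.09-fold, limma adjusted p = 0.00166). Against KO LSK the value was 0.80 ± 0.25 (limma adjusted p = 0.0549), which passed in 9 of 21 other settings, among them the replicate block (0.0448), quantile normalization (0.0218) and 16 added to the intensities (0.0439), and against KO CMP 0.67 ± 0.25 (adjusted p = 0.109). Gfi1, its paralog, had 680.3 and 801 in replated KO cells, against 265 and 678 in KO LSK, 189 and 401 in KO CMP and 960.0 and 1077 in KO GMP. The KO LSK and KO CMP arrays differed among themselves by more than 2-fold, and no Gfi1 comparison passed (0.80, 1.42 and -0.46, SE 0.46 each, limma adjusted p = 0.3, 0.065 and 0.615). Leaving out 1 array brought some of these past the threshold: the KO CMP difference had adjusted p = 0.0232 without either KO LSK array and 0.0363 without KO CMP array 2, and the KO LSK difference 0.0482 without KO LSK array 2.

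Myb, a regulator of progenitor proliferation, had 2486 and 2599 on probe set 1450194_a_at in replated KO cells, against 4574 and 4682 in KO LSK, 5015 and 5509 in KO CMP and 5817 and 5473 in KO GMP. On 1422734_a_at replated KO cells had 1529 and 1609, against 3059 and 2841, 3499 and 3745, and 4299 and 3688 in KO LSK, CMP and GMP. Replated arrays lay below all sorted arrays on both. The differences from KO GMP were -1.15 ± 0.12 (limma adjusted p = 0.000146) and -1.34 ± 0.13 (adjusted p = 8.13e-05), and the same 2 probe sets fell against KO LSK and KO CMP, by 0.86 to 1.21 on the log2 scale. The leading set 1421317_x_at, of a kind that can hybridise with related transcripts, had 8353 and 8827 in replated KO cells and 9552 to 11011 in sorted KO cells. Its differences of -0.19, -0.23 and -0.34 did not pass (limma adjusted p = 0.314, 0.213 and 0.0661), so Myb is not among the genes counted by leading probe set. They passed in all 3 comparisons with a spread fitted to intensity (0.0232, 0.00784 and 0.000744), and against KO CMP and KO GMP with 16 added to the intensities (0.0243 and 0.00372). The range of its group means was 0.34 log2 units, against 1.15 and 1.44 for the other Myb probe sets.

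Myc had 680.3 and 806 in replated KO cells, against 2416 and 2602 in KO LSK, 2772 and 2733 in KO CMP and 2179.8 and 2303 in KO GMP. The replated arrays were the lowest, with no other array below 1824. The difference was -1.76 ± 0.20 against KO LSK (3.39-fold lower, limma adjusted p = 0.000305), -1.89 ± 0.20 against KO CMP (adjusted p = 2e-04) and -1.60 ± 0.20 against KO GMP (adjusted p = 0.000544). Etv6 had 3044 and 2617 on its leading probe set in replated KO cells, against 6783 and 7275 in KO LSK, 6442 and 6141 in KO CMP and 5676 and 5393 in KO GMP. Here too the replated arrays lay below all others, with differences of -1.32 ± 0.12 (limma adjusted p = 8.81e-05), -1.16 ± 0.12 (adjusted p = 0.000209) and -0.97 ± 0.12 (adjusted p = 0.000581). Its dim second probe set, 1423401_at, had 126 and 104 in replated KO cells against 149.9 to 390.5 in sorted KO cells, and passed against KO CMP alone (-1.63 ± 0.39, limma adjusted p = 0.0176). That call was lost without replated array 1 (0.0628), replated array 2 (0.111) or KO CMP array 2 (0.0954).

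**Figure D3:**
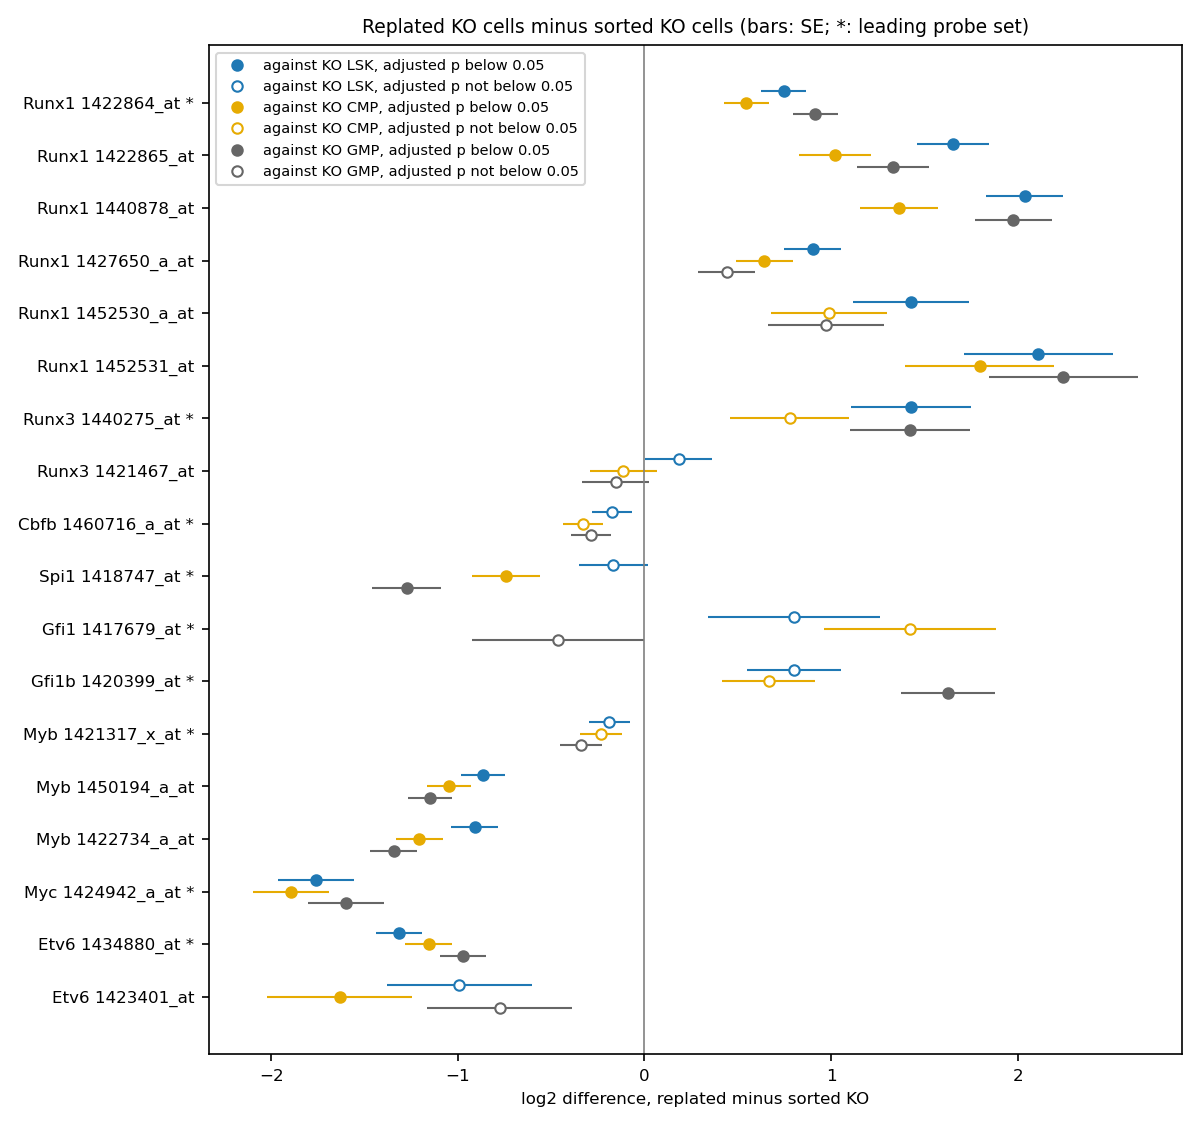
Log2 difference of replated KO cells from KO LSK, KO CMP and KO GMP for all 18 probe sets (x axis, log2 units, with SE bars; filled points passed limma's threshold; rows are probe sets grouped by gene, with an asterisk at the leading one). All Runx1 values lie to the right of 0, and all Myc, Etv6 and Myb values to the left.

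The stage comparisons followed the genes along LSK, CMP and GMP within each genotype. Spi1 was higher in GMP than in LSK in both. KO arrays had 129.6 and 161 in LSK, 224 and 207 in CMP and 337 and 288 in GMP, and WT arrays 157 and 175, 282 and 205, and 341 and 358. The GMP arrays lay above every LSK array, by 1.11 ± 0.18 log2 units in KO (SE, limma adjusted p = 0.0127) and 1.08 ± 0.18 in WT (adjusted p = 0.013). The single steps did not pass: CMP minus LSK was 0.57 in KO and 0.54 in WT, and GMP minus CMP 0.53 and 0.54 (SE 0.18 each). The KO call was lost without KO GMP array 1 (adjusted p = 0.0949), and the WT call without WT LSK array 1 (0.0693), WT GMP array 1 (0.0554) or WT GMP array 2 (0.08). Over the same step the summed monocyte markers were 1634 to 2243 in KO LSK and 8736 to 9444 in KO GMP, and their part in the Spi1 difference was not tested.

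Gfi1b ran the other way. KO arrays had 223 and 205 in LSK, 285 and 193 in CMP and 148 and 98.5 in GMP, and WT arrays 240.6 and 249.998, 265 and 322, and 125 and 94.2. GMP arrays of both genotypes lay below all LSK and CMP arrays. GMP minus LSK was -0.82 ± 0.25 in KO (limma adjusted p = 0.113) and passed in WT (-1.18 ± 0.25, adjusted p = 0.0332), with no called difference between the genotypes in the interaction given below. The WT call was lost with a spread fitted to intensity (limma adjusted p = 0.06) and with the 12 sorted arrays alone (0.0621). A fit to only the arrays of the groups compared lost it too (0.17). It was also lost without WT LSK array 1 (difference -1.21) or 2 (-1.15), WT GMP array 1 (-1.38) or 2 (-0.97), or either replated array (-1.18). Megakaryocyte markers (5 measured) summed to 3749 to 3810 in replated KO cells. They summed to 1841 to 2185 in KO LSK, 3256 to 3557 in KO CMP and 1373 to 1521 in KO GMP, and to 1483 to 2023, 2975 to 3034 and 1920 to 1949 in the same WT stages. Most of the replated sum was Itga2b (1696 and 1892) and Vwf (1678 and 1563). Pf4 (142.7 and 137.3), Gp9 (203.9 on each array) and Gp1bb (28.18 and 13.62) were lower there than on either KO LSK array. All 5 are named after their values were seen. The part of these markers in the Gfi1b values was not tested.

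For GMP against LSK, 1 of 9 leading probe sets was called in KO, where 5.58% of all genes passed, and 2 of 9 in WT, where 5.72% passed. Counted over probe sets, 1 of 18 passed in KO and 2 of 18 in WT, against 4.34% and 4.31% of all. In the other 4 stage comparisons limma called 0 of 18, against 0.588% (KO) and 0.815% (WT) of all probe sets for CMP against LSK and 0.406% (KO) and 0.411% (WT) for GMP against CMP. At an unadjusted p under 0.05 the counts were 4 of 18 (KO) and 2 of 18 (WT) for CMP against LSK, and 5 of 18 (KO) and 7 of 18 (WT) for GMP against CMP. The same unadjusted threshold was passed by 12.4% (KO) and 10% (WT) of all probe sets for CMP against LSK, and by 8.39% (KO) and 8.33% (WT) for GMP against CMP.

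Gfi1 had its lowest group mean of the 3 stages in CMP and its highest in GMP in both genotypes. KO arrays had 265 and 678 in LSK, 189 and 401 in CMP and 960.0 and 1077 in GMP, and WT arrays 765 and 557, 378 and 343, and 1432 and 971. GMP lay above CMP without overlap, by 1.88 ± 0.46 in KO and 1.71 ± 0.46 in WT, which did not pass (limma adjusted p = 0.192 and 0.237). GMP minus LSK in KO, at 1.26 ± 0.46 (adjusted p = 0.186), passed without KO LSK array 2 (1.94, adjusted p = 0.047).

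The Runx1 leading probe set was highest in CMP among the sorted stages. KO arrays had 3882 and 3941 in LSK, 4625 and 4365 in CMP and 3709 and 3257 in GMP, and WT arrays 4161 and 3879.7, 4689 and 4755, and 3619 and 3509.7. GMP minus CMP was -0.37 ± 0.12 in KO and -0.41 ± 0.12 in WT, and neither passed (limma adjusted p = 0.36 and 0.295). By group mean, 1422865_at, 1440878_at and 1452531_at were also highest in CMP in both genotypes. Probe set 1427650_a_at had 175.3 and 181.6 in KO CMP against 222.6 and 189.5 in KO GMP. The means of 1452530_a_at were highest in WT LSK and KO GMP. WT CMP minus LSK on 1427650_a_at was 0.72 (95% interval 0.38 to 1.07, limma adjusted p = 0.0879). It passed with 16 added to the intensities (0.0466). The Runx3 leading set 1440275_at had the same order of CMP over GMP, with -0.64 in KO and -0.75 in WT (SE 0.32 each, limma adjusted p = 0.664 and 0.574). The dim set 1421467_at did not have that order, with 0.04 in KO and 0.46 in WT (interval 0.06 to 0.87), and neither passed. Cbfb stood between 5029.9 and 5712 on all 12 sorted arrays. GMP minus LSK was -0.34 in KO and -0.29 in WT for Etv6 (limma adjusted p = 0.181 and 0.277), and -0.16 and 0.05 for Myc, none of which passed. The KO value of Etv6, on its leading set, passed with a spread fitted to intensity (0.0404). On the dim Etv6 set 1423401_at the LSK and GMP arrays overlapped in both genotypes. Myb had a KO GMP minus LSK value of 0.43 on 1422734_a_at, which did not pass (limma adjusted p = 0.0986). It passed with 16 added to the intensities (0.0255) and with a spread fitted to intensity (0.0279).

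The order of the 7 group means, and which neighbours in it had overlapping arrays, differed by gene. Spi1 ran from replated KO, KO LSK, WT LSK, KO CMP, WT CMP and KO GMP to WT GMP, with replated KO and both LSK groups overlapping in sequence and the GMP groups clear of CMP. For Gfi1b the order was WT GMP, KO GMP, KO LSK, KO CMP, WT LSK, WT CMP and replated KO, with a gap between the GMP groups and the rest. In Gfi1 only replated KO and KO GMP were neighbours without overlap. In Myc replated KO alone was apart from the group above it, and the 6 sorted groups overlapped one another in sequence. In Runx3 the single gap was between KO CMP and replated KO.

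The genotype comparison set sorted KO cells against sorted WT cells, and for these genes no difference passed. Averaged over LSK, CMP and GMP, limma called 0 of 18 probe sets, where 0.249% of all probe sets passed, and 1 of 18 had an unadjusted p under 0.05, against 8.79% of all. Within LSK, CMP and GMP it also called 0 of 18 (0.295%, 0.0844% and 0.0711% of all probe sets), with 1, 0 and 1 at an unadjusted p under 0.05, against 9.81%, 6.16% and 4.35% of all. Gfi1 had the largest average among leading probe sets, -0.41 ± 0.27 in KO (adjusted p = 0.718), with a 95% interval from -1.01 to 0.19. Spi1 had negative KO minus WT differences in LSK, CMP and GMP, of -0.20, -0.16 and -0.17 (SE 0.18 each), and the average of -0.17 ± 0.11 did not pass (limma adjusted p = 0.696, interval -0.41 to 0.07).

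The 95% intervals of the averaged KO minus WT difference are those of single probe sets. On the leading sets Runx1 lay between -0.21 and 0.11 log2 units, Cbfb between -0.17 and 0.11, Etv6 between -0.12 and 0.21, and Myc between -0.21 and 0.32. Gfi1b (-0.44 to 0.21) and Runx3 (-0.45 to 0.38) had wider ones. The Myb interval was -0.12 to 0.17 on the leading set, -0.16 to 0.15 on 1450194_a_at and -0.28 to 0.05 on 1422734_a_at. Other Runx1 sets had lower values: 1440878_at ran from -0.47 to 0.07 and 1452530_a_at from -0.87 to -0.06. In GMP 1440878_at had 751 and 697 in KO against 937 and 1083 in WT, without overlap, a difference of -0.48 (interval -0.95 to -0.01) that did not pass (limma adjusted p = 1). The extreme averages were those of 2 dim probe sets, 1452530_a_at of Runx1 at -0.46 ± 0.18 (limma adjusted p = 0.491) and 1423401_at of Etv6 at 0.45 ± 0.22 (adjusted p = 0.615). The first had 77.1 and 52.2 in KO LSK against 83.8 and 152 in WT LSK, and the second 323 and 390.5 in KO CMP against 235 and 169 in WT CMP. Whether the KO effect differed between populations was tested as an interaction, in which limma called 0 of 18 probe sets in each of the 3 pairs of populations and 0 had an unadjusted p under 0.05, against 0, 4 and 0 of all probe sets called (0%, 0.00888% and 0%) and 6.57%, 6.04% and 4% at the unadjusted threshold, for CMP against LSK, GMP against LSK and GMP against CMP. B cell markers (4 measured) summed to 1165 to 1988 in KO LSK and 3254 to 5195 in WT LSK, and their part in the LSK values was not tested.

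**Figure D4:**
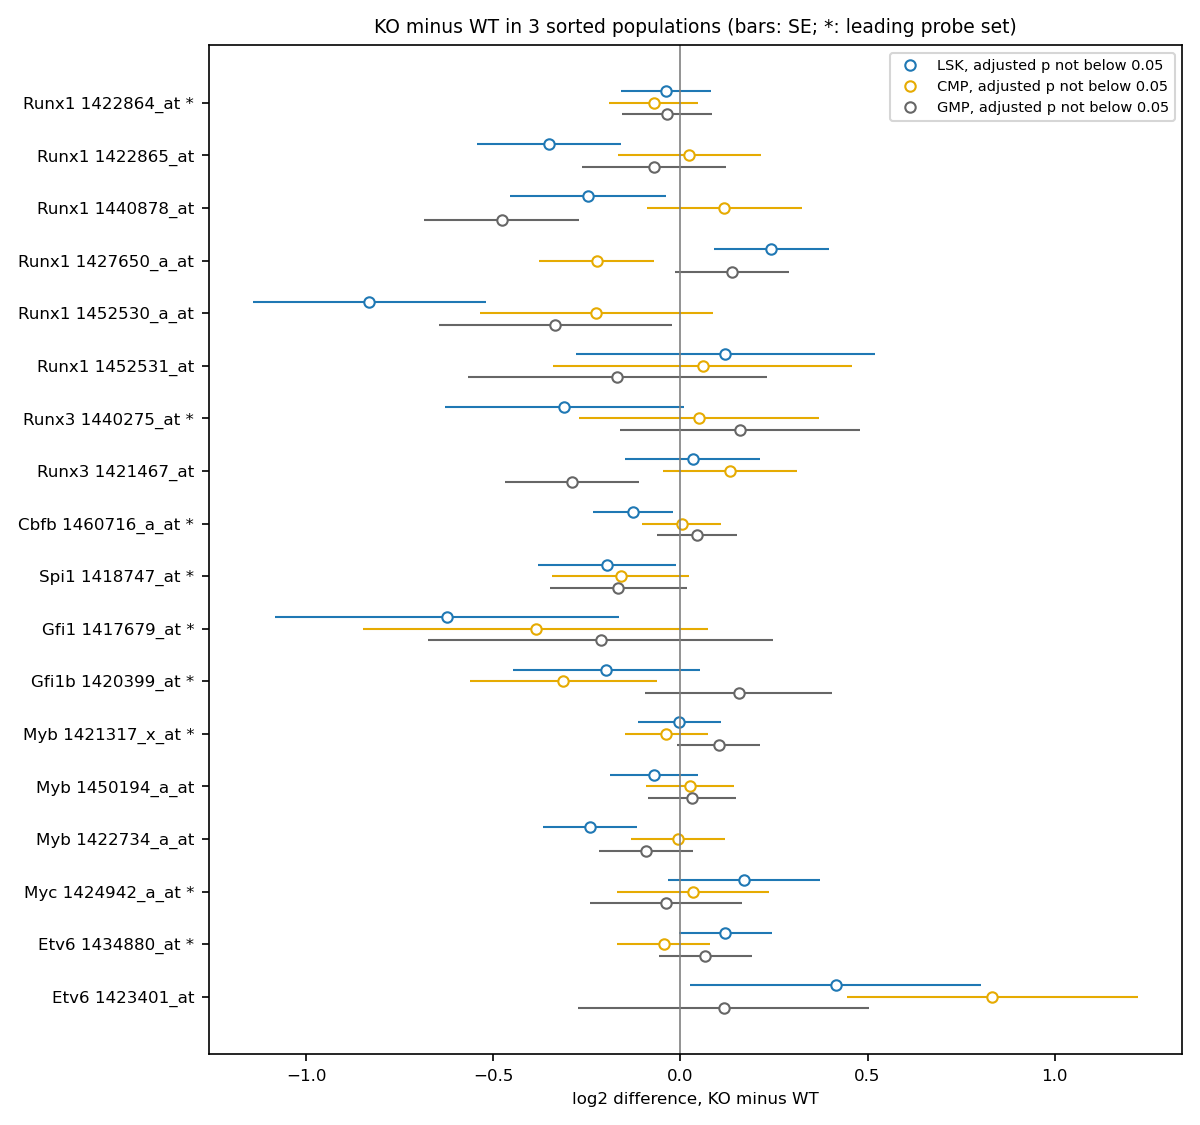
Log2 difference of KO minus WT cells for all 18 probe sets in LSK, CMP and GMP (x axis, log2 units, with SE bars; rows are probe sets grouped by gene, an asterisk marks the leading one, and open points did not pass limma's threshold). All points are open, and the extremes are -0.83 for a dim Runx1 probe set in LSK and 0.83 for the dim Etv6 probe set in CMP.

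Other genes of the same pathways, from lists of partners, relatives and known targets, were followed by the same fit through their leading probe sets. Where a gene stood at or below the floor on both arrays of a group, only a bound is printed, the brighter mean over the floor of the dim arrays ("at least"). Myc target genes, which serve ribosome production, nucleotide synthesis and growth, were mostly lower in replated KO cells: 13 of 24 fell against KO LSK (median log2 difference -0.76), 15 fell against KO CMP (median -0.98) and 18 fell against KO GMP (median -1.20), with medians over all genes of 0.01, -0.07 and -0.06. Of all genes, 13.2%, 13% and 14% fell against KO LSK, KO CMP and KO GMP, and 9.93%, 9.48% and 9.33% rose, the shares to set beside each count of a list below. The test also passed for Tert (12.51 and 12.13 in replated KO cells, 8.513 and 8.683 in KO LSK, limma adjusted p = 0.0447), which lay below the floor in both, so no rise is counted; it is named after its values were seen. Fbl, the fibrillarin gene of nucleolar RNA processing, had 1839 and 1633 in replated KO cells, against 5394 and 5732 in KO LSK, 6608 and 5220 in KO CMP and 5788 and 6068 in KO GMP. It fell by 1.68 (limma adjusted p = 6.58e-05), 1.76 (5.14e-05) and 1.77 (4.66e-05). Dkc1, a telomerase and snoRNA factor, fell by 1.27, 1.29 and 1.31 (limma adjusted p = 0.000141, 0.000132 and 0.000114). Among the Max and Mxd network, 1 of 11 genes rose against KO LSK, 1 against KO CMP and 3 against KO GMP (medians 0.19, 0.05 and 0.23). Not all its changes were rises, since Mycn fell against KO LSK. The genes that rose included Mxd1, a Max partner that opposes Myc, at 1.41 ± 0.33 against KO CMP (limma adjusted p = 0.0174) and 1.22 ± 0.33 against KO GMP (adjusted p = 0.0322). Mycn, the Myc paralog, fell against KO LSK (-1.55, adjusted p = 0.00337) and rose against KO GMP (1.84, adjusted p = 0.00123). Mycn also fell with stage, with GMP minus LSK at -3.39 ± 0.27 in KO (adjusted p = 0.000491) and -2.80 ± 0.27 in WT (adjusted p = 0.000983). Over that step limma called 0 of 24 Myc targets in KO and 0 in WT.

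PU.1 target genes moved both ways in replated KO cells: 5 of 14 rose and 6 fell against KO LSK and against KO CMP, and 4 rose and 6 fell against KO GMP, with medians of -0.57, -0.61 and -0.31. Csf1r, the receptor for macrophage colony-stimulating factor, stood at 8.755 and 6.142 in replated KO cells, below the floor, against 2594 and 2306 in KO GMP. It was at least 113-fold lower in replated KO cells (limma adjusted p = 6.43e-05). Csf3r, the receptor for granulocyte colony-stimulating factor, was at least 9.48-fold lower than in KO GMP (limma adjusted p = 1.78e-05). Fcgr3, an Fc gamma receptor gene, was higher than in KO LSK: 5454 and 5258 in replated KO cells against 382.1 and 402.3 (3.77 ± 0.22, limma adjusted p = 3.25e-06). Its level in KO GMP, the group used for Csf1r and Csf3r, was closer, at 3382 and 4016. Along the stages 4 PU.1 targets rose and 1 fell at GMP against LSK in KO (median 0.53) and likewise in WT (median 0.72), with all-gene medians of 0.07. Of all genes, 2.53% rose and 3.05% fell over that step in KO, and 2.42% and 3.3% in WT. The list holds Fcgr3, and GMP were sorted as high for Fc gamma receptor, so its rise from LSK to GMP is not independent of the sort. Csf1r and Cd14 of this list are also monocyte markers summed above, whose part in the counts was not tested.

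Among PU.1 partners and relatives, Cebpa, a factor needed to form GMP, had 62.74 and 75.85 in replated KO cells, against 4228 and 3631 in KO LSK, 6348 and 5494 in KO CMP and 6883 and 7367 in KO GMP. The differences were -5.83 ± 0.14, -6.42 ± 0.14 and -6.69 ± 0.14 (limma adjusted p = 1.65e-08, 1.06e-08 and 7.83e-09). Irf8, a monocyte and dendritic cell factor that binds DNA with PU.1, lay below the floor in replated KO cells at 13.71 and 9.516, at least 106-fold lower than in KO GMP (limma adjusted p = 2.19e-08). Gata2, a stem cell and mast cell factor that opposes PU.1, had 13220 and 12820 in replated KO cells, against 4367 and 3687 in KO GMP (1.70 ± 0.14, limma adjusted p = 2.93e-05). The list as a whole had 2 risen and 6 fallen of 12 against KO LSK, 2 and 3 against KO CMP, and 2 and 4 against KO GMP. The medians of -1.37, -0.35 and -0.52 became -0.87, -0.19 and -0.42 with values under the floor raised to it.

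RUNX target genes had 1 risen and 5 fallen of 11 measured against KO LSK, and 1 risen and 6 fallen against KO CMP and KO GMP, the medians being -0.21, -0.93 and -0.71. Mpo, the myeloperoxidase gene of primary granules, led the falls at 14.09 and 14.15 in replated KO cells, below the floor, against 12430 and 12280 in KO GMP, and was at least 568-fold lower (limma adjusted p = 7.6e-10). Mpo, Elane and Csf1r are also early granulocyte or monocyte markers, whose shift is given above. RUNX cofactors were mixed, with 2 of 13 risen and 3 fallen against KO LSK, 3 and 3 against KO CMP, and 3 and 2 against KO GMP (medians 0.16, 0.33 and 0.16). Runx1t1, the ETO corepressor gene, had 157.6 and 119.4 in replated KO cells and lay below the floor in KO CMP and KO GMP, so that it was at least 5.45-fold and 5.37-fold higher in replated KO cells (limma adjusted p = 0.000144 and 0.000127). In sorted cells it was the only RUNX cofactor that passed between genotypes, in LSK, with 89.7 and 46.75 in KO against 13.6 and 9.921 in WT, below the floor, at least 2.98-fold higher (limma adjusted p = 0.0324). Cd14, a PU.1 target and monocyte marker, was the only other gene of these lists that passed between genotypes, on average 1.06 ± 0.16 higher in KO (limma adjusted p = 0.0482). In WT LSK it had 20.24 and 25.28, the first below and the second just above the floor, against 85.52 and 65.13 in KO LSK. Of all genes, 0.242% passed in LSK and 0.242% on average.

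Of the Gfi1 corepressors, 1 of 11 rose and 1 fell against KO LSK, 2 and 3 against KO CMP, and 1 and 2 against KO GMP (medians -0.03, -0.18 and 0.03). Of 8 measured Gfi1 targets, 2 rose and 3 fell against KO LSK, 2 and 2 against KO CMP, and 2 and 3 against KO GMP. Id2, an inhibitor of basic helix-loop-helix factors, had 6508 and 7299 in replated KO cells, against 431.5 and 762.9 in KO LSK (3.59 ± 0.32, limma adjusted p = 6.34e-05). Hoxa9, a homeobox gene of stem and progenitor cells, fell below the floor there and was at least 73.5-fold lower than in KO LSK (limma adjusted p = 2.1e-08). Of 12 measured Myb relatives and targets, 3 rose and 4 fell against KO LSK, 2 and 4 against KO CMP, and 3 and 4 against KO GMP. This list also holds Mpo and Elane, early granulocyte markers whose shift is given above. In replated KO cells they were at least 344-fold and 68.7-fold lower than in KO LSK (limma adjusted p = 1.52e-09 and 1.89e-08). Anpep, the gene of the myeloid surface peptidase CD13, had 1243 and 979.1 in replated KO cells against 10.06 and 12.45 in KO LSK, below the floor, and was at least 51.2-fold higher in replated KO cells (limma adjusted p = 3.3e-07). Among other ETS factors, 1 of 15 rose and 3 fell against KO LSK, 0 and 3 against KO CMP, and 2 and 2 against KO GMP. Ets2 had 1417 and 1078 in replated KO cells against 4307 and 4299 in KO LSK (-1.80 ± 0.17, limma adjusted p = 9.77e-05).

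**Figure D5:**
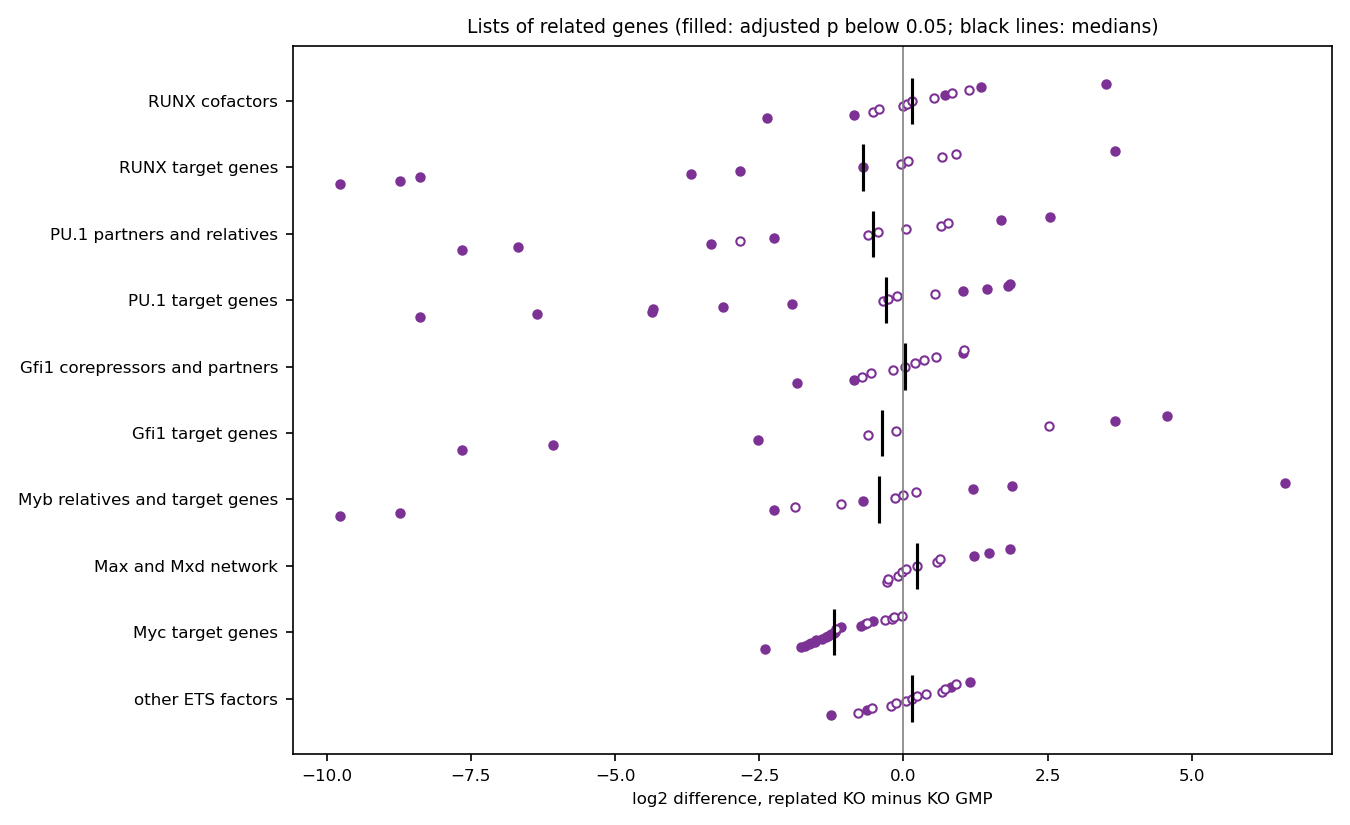
Log2 difference of replated KO minus KO GMP cells for each measured gene of the 10 related lists (x axis, log2 units as measured, also where a group lay under the floor; points are genes, the black line of a row its median; filled points passed limma's threshold). All 24 Myc targets lie to the left of 0, with a median of -1.20, while both PU.1 lists spread on both sides.

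Genes whose pattern over the 14 arrays was most like that of each factor were named by Pearson correlation of log2 values, among 7353 or 7354 genes that varied, as a description with no test, since the arrays share groups and the replated pair carries much of the spread. Runx1 was most like the cytoskeletal gene Vcl (0.9444), Nckap1 (0.9443) and Gata2 (0.9424). Gfi1b was most like Ppp1r13b (0.9129), Plek (0.9014) and Gata2 (0.9), and Spi1 most like Sowahc (0.9651), Hp (0.9599) and Cycs (0.9588). Myc followed Dnph1 (0.978), Rbbp7 (0.975) and Dach1 (0.9734), and Etv6 followed Marcksl1 (0.9893), Septin6 (0.9864) and Smad3 (0.9857). For Myb the nearest were Agk (0.9488), Rad18 (0.9319) and Bambi (0.9293), for Cbfb Panx1 (0.969), Ifitm6 (0.945) and Sinhcaf (0.9436), and for Runx3 Syde2 (0.9084), Cramp1l (0.8933) and Rnf180 (0.8917). Gfi1 had the weakest matches, with Per3 (0.814), Dstn (0.8112) and Rhou (0.8026).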

How the data were processed

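Affymetrix mouse expression arrays (14, in 7 groups of 2) were analysed from the deposited intensities, which the authors made with RMA, per the submitters' processing notes; its version is not given in the sources used here. Per the labels' protocols, RNA was amplified before labelling. Intensities are linear, so log2 was taken with no further scaling. Of 45101 probe sets, 64 controls were left out. The annotation names 1 gene for 34958 and several for 932, and 9211 are not listed there. Limma 3.58.1 in R 4.3.3 fitted 1 mean per group over all arrays (7 residual and 2.02 prior degrees of freedom), with two-sided tests and Benjamini-Hochberg adjustment over 45037 probe sets, and a threshold of 0.05. Levels of lists are those of leading probe sets, over 18193 genes. The floor is the brightest of 27 unspiked Bacillus subtilis control probe sets per array; the hybridisation spikes are bright by design and were not used for it. Genes were named as the 10 factors, up to 3 members of each related list past the threshold by smallest p, and the 3 most alike genes with a range of at least 1 log2 unit. The genes, lists, floor and tests were chosen with earlier results of these data known. Alternatives are given in the closing section. Promoter sequences are RefSeq's. The number of arrays limits the precision, and scan dates were not used. The limma fit was tested on simulated data.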

Additional observations from a re-analysis of the deposited data

How the results depend on the processing

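Each comparison was refitted with other settings of probe sets, intensities, normalization, spread and arrays. Of the 36 probe set calls in all comparisons, 23 were kept in every setting, 13 were lost in some, and 0 changed direction. Another 19 values that did not pass did so in at least 1 setting, among them all 3 replated differences of Cbfb and of the leading Myb probe set. Of the counts by leading probe set, WT GMP against CMP changed to 1 of 9 with 1 leading probe set per gene (Gfi1b, adjusted p = 0.0364) and to 1 with quantile normalization. WT GMP against LSK changed to 1 with an intensity trend and robust prior, to 1 with the 12 sorted arrays and to 0 with the arrays of the groups compared, where 0 of all probe sets passed. KO GMP against LSK changed to 2 with the trend and to 0 with the arrays of the groups compared, where again 0 of all passed, and replated KO against KO LSK to 2 with those arrays. Leaving out 1 array gave 0 to 2 for WT GMP against LSK, 0 to 2 for KO GMP against LSK, 3 to 5 for replated KO against KO LSK, 2 to 5 against KO CMP and 5 to 6 against KO GMP, and 0 in every other comparison. The cause was not tested. Without the 4 LSK arrays, an alternative chosen after seeing the data, no count moved by over 1.5 times. The labels do not say whether equal replicate numbers pair the arrays. Over 21 pairs of groups, the differences of array 1 minus array 2 within a group correlated at -0.08 to 0.07. With a single difference per group, these values cannot show whether arrays of equal number share an animal or sort. With the replicate block the counts were 0 of 9 in each KO against WT comparison, 1 and 2 for GMP against LSK in KO and WT, and 5, 4 and 6 for replated KO against KO LSK, KO CMP and KO GMP, the added KO LSK call being Gfi1b (adjusted p = 0.0448). The order of group means changed for 4 of 9 genes when all probe sets were averaged. These are all the genes with several probe sets (Runx1, Runx3, Myb and Etv6), and for the others the order could not change. Counts over all probe sets moved more, and in the KO against WT and stage comparisons the lowest came with only the arrays of the groups compared: the called number was 112 for KO against WT on average (56 to 302 over the settings), 133 in LSK (0 to 658), 38 in CMP (5 to 176) and 32 in GMP (6 to 70), and 8561, 8260 and 8545 for replated KO against KO LSK (5207 to 8981), KO CMP (4941 to 9632) and KO GMP (5332 to 11329). The lowest replated counts came without replated array 2. For GMP against LSK the number was 1953 in KO (0 to 2272) and 1940 in WT (0 to 2527), for CMP against LSK 265 (0 to 653) and 367 (12 to 917), and for GMP against CMP 183 (0 to 303) and 185 (0 to 261). The 2 arrays a group limit the precision of every value.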
